A study of Mus musculus with 6 samples.

Results

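The genes described here are 54 genes of glycolysis, the pentose phosphate pathway and the tricarboxylic acid (TCA) cycle. Transporters and side branches that feed these routes are included. These genes were measured by RNA-sequencing of newborn mouse lenses, from Control mice and from mice with a lens conditional knockout of Celf1. The 54 genes were listed by name and looked up by symbol in the deposited table, which holds 13931 genes. All 54 were present, and 52 of them had an average log2 CPM above 1 (CPM, reads per 1000000 reads counted on genes, after the authors' scaling between libraries), the cut-off used here for a gene to be counted as expressed. The pair below it was Slc2a3 and Pfkfb2.

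Celf1 encodes an RNA-binding protein that controls splicing, stability and translation of its target mRNAs. Whole lenses were dissected from P0 (newborn) mice on a mixed C57BL/6J and FVB background, and a pair of lenses was pooled for each of 3 Control and 3 Celf1cKO libraries. Celf1cKO mice carried one Celf1lacZKI germline knockout allele, one floxed Celf1 allele and Pax6GFPCre, a Cre transgene active in the lens placode and other surface ectoderm of the eye. The sample labels give the Control genotype as Celf1lacZKI/+, so that by the labels both groups carried 1 germline knockout allele, whereas the study's methods name floxed animals without Cre as the usual control. Which of these genotypes the Control libraries had was not settled here, and Cre was present only in Celf1cKO lenses.

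Glycolysis splits glucose in the cytoplasm into pyruvate, which is either reduced to lactate or carried into mitochondria, where the pyruvate dehydrogenase complex turns it into acetyl-CoA for the TCA cycle. The pentose phosphate pathway branches off at glucose 6-phosphate and makes NADPH, which keeps glutathione reduced, and ribose for nucleotides. The lens has no blood vessels of its own in the adult and its fiber cells lose their mitochondria as they mature, so that it is known for drawing most of its energy from glycolysis to lactate, while the polyol branch, in which aldose reductase turns glucose into sorbitol, is known for its part in sugar cataract.

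The 6 libraries held 40694454 to 44387151 reads on genes. Celf1 itself lay between 9.34 and 9.95 log2 CPM in the Control libraries and between 7.66 and 8.93 in the Celf1cKO libraries. The log2 fold-change was -1.60 (adjusted p = 0.0269, limma). The study reports that deletion of the floxed exon was incomplete, so that part of the Celf1 transcripts in Celf1cKO lenses still held it. The lens fiber markers (11 of 12 listed in the table, 4 of them reduced) summed to 179255 to 200498 CPM in Control and 144544 to 149964 CPM in Celf1cKO, and no cornea or skin keratin on the list was in the table. Markers of other cells were present at low levels and were uneven across the Celf1cKO libraries. Endothelial markers (8 of 8 in the table) summed to 97.8 to 121 CPM in Control and to 118, 23.4 and 56.2 CPM in Celf1cKO replicates 1, 2 and 3, fibroblast and mural markers (6 of 8) to 155 to 175 CPM against 115, 24.7 and 63.8 CPM, and lens epithelium markers (8 of 8) to 935 to 1032 CPM against 951, 577 and 783 CPM. Most of the fibroblast and mural sum came from Pdgfra and Rgs5 (average log2 CPM 5.96 and 5.44). The collagen genes Col1a1, Col1a2 and Col3a1 averaged -1.13, 0.69 and 0.41, below the expression cut-off. Cdh2, the highest lens epithelium marker, differed by 0.02. The other lens epithelium markers all had negative log2 fold-changes, from -2.01 for Foxe3, the only one called reduced, to -0.37 for Pax6. In a whole lens, fewer cells of a type and less RNA per cell cannot be told apart.

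A gene was called elevated or reduced with an adjusted p under 0.05 (limma, Benjamini-Hochberg over all genes), a log2 fold-change beyond 0.58 in either direction, and expression above the cut-off. Of the 52 expressed members, 9 were elevated in Celf1cKO lenses, a share of 17.3%, against 6.24% of all 10640 expressed genes, and 1 was reduced, a share of 1.92%, against 3.44%. In either direction this was 19.2% of the expressed members, beside 9.68% of all expressed genes. The elevated members were Hk1, Gpi1, Pfkp, Aldoa, Pgk1, Eno2 and Ldha of glycolysis and the cytosolic dehydrogenases Mdh1 and Me1, and the reduced member was Sord of the polyol pathway. Pdhb and Idh1 passed the adjusted p alone, which brought the counts to 11 higher (all expressed genes 9.82%) and 1 lower (4.75%). Members above the cut-off had a median log2 fold-change of 0.18, beside 0.00 for the whole table above it, and 34 were positive and 18 negative. The groups did not overlap for 22 members with higher and 7 with lower values in Celf1cKO, 42.3% and 13.5% of them, beside 23.1% and 16.9% of all expressed genes.

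**Figure D1:**
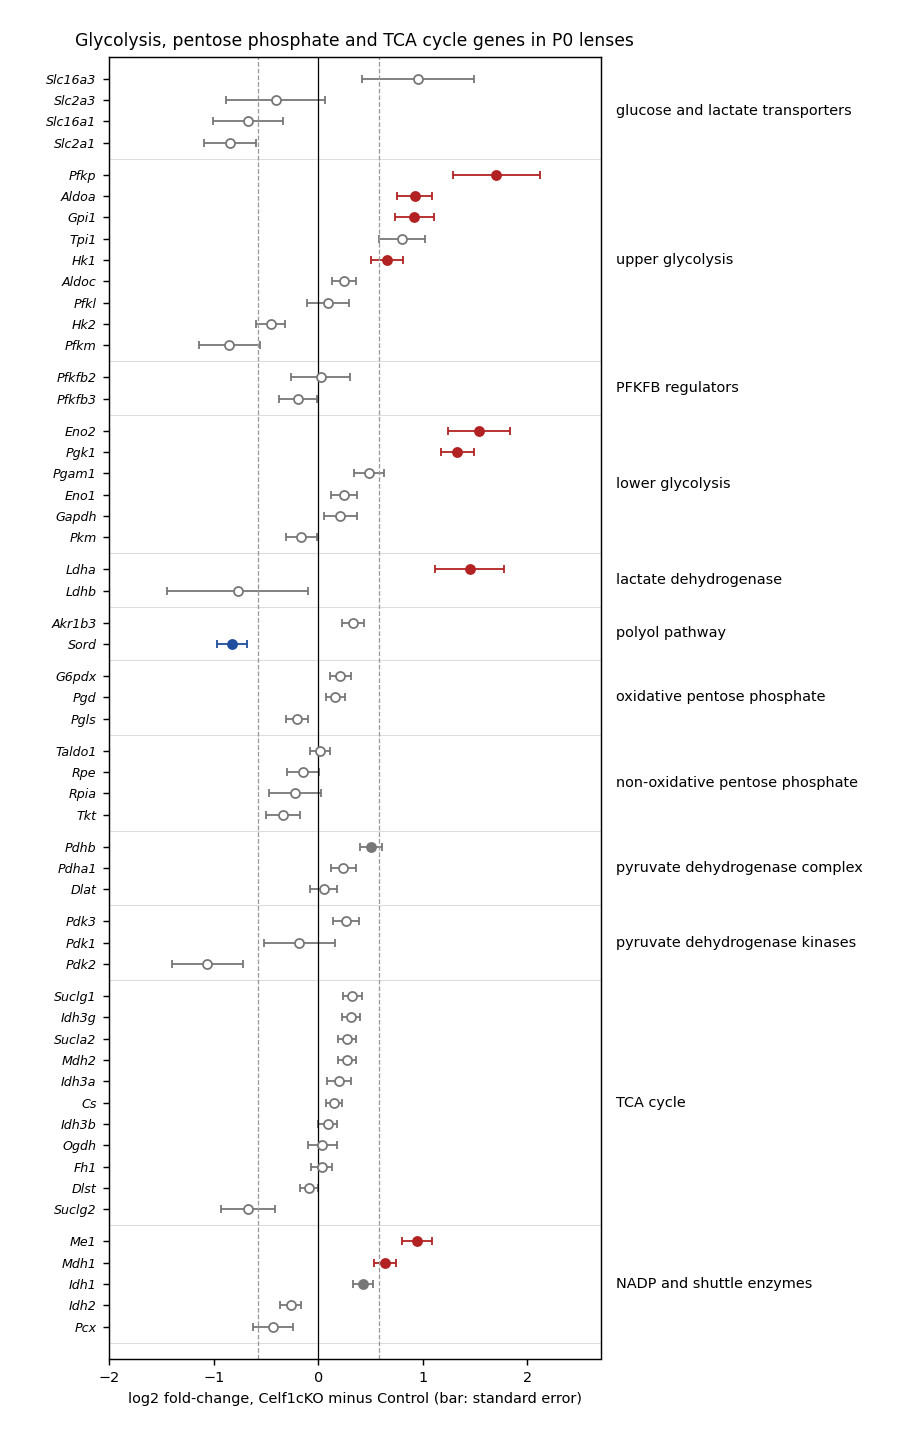
Log2 fold-change (Celf1cKO minus Control, horizontal axis) of each of the 54 genes, grouped by role, with the standard error from limma as bars. Red points are the 9 elevated and the blue point the 1 reduced gene, grey filled points passed the adjusted p but not the fold cut-off of 0.58 (dashed lines), and open points passed neither. The red points lie in glycolysis and among the NADP and shuttle enzymes, and none in the pentose phosphate pathway, the pyruvate dehydrogenase complex or the TCA cycle.

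The calls rested on few libraries. Without Control replicate 2 or without Celf1cKO replicate 3, no member was called and only 1 gene of the whole table was, although 18 members with higher and 6 with lower values, and 17 and 4, still had an unadjusted p under 0.05 in limma. With all libraries these were 18 and 7, or 34.6% and 13.5% of the members, beside 19.6% and 14.4% of all expressed genes. Without Control replicate 1 the calls of Eno2, Hk1, Pfkp and Sord were lost and Pgam1 and Tpi1 were called elevated, without Control replicate 3 only Pgk1, Eno2 and Me1 were called, and without Celf1cKO replicate 2 those of Eno2, Hk1, Mdh1 and Pfkp were lost. Without Celf1cKO replicate 1 the call of Pfkp was lost and 6 members were reduced, which added Hk2, Pfkm, Slc2a1, Pdk2 and Suclg2 to Sord. Reduced calls were more frequent over the whole table under that setting, 8.24% of all expressed genes beside 11.5% of the members. No called member changed direction under any of these settings. The shared replicate number was also used as a block, a pairing that the labels do not state and that is described with the methods. With it, 11 members were elevated (all expressed genes 7.11%) and 4 reduced (4.92%). The block added Tpi1 and Slc16a3 as elevated and Slc2a1, Slc16a1 and Pdk2 as reduced.

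Glucose enters lens cells through facilitative transporters and lactate leaves them through monocarboxylate transporters. Slc2a1, which encodes the glucose transporter GLUT1, read 8.64, 8.63 and 8.74 log2 CPM in Control replicates 1, 2 and 3 and 8.42, 7.30 and 7.76 in Celf1cKO replicates 1, 2 and 3. All Celf1cKO libraries were below all Control libraries, replicate 1 by the least and replicate 2 by the most. The log2 fold-change was -0.84 ± 0.249 (SE), which missed the threshold (adjusted p = 0.0694) and passed it with the replicate block (adjusted p = 0.0451) or without Celf1cKO replicate 1 (adjusted p = 0.00417). GLUT1 is also the glucose transporter of blood vessel endothelium. Among the Celf1cKO libraries, replicate 1 was highest and replicate 2 lowest for Slc2a1, for the endothelial, fibroblast and lens epithelium marker sums given above, and for 22 of the 52 expressed members (42.3%, beside 23.7% of all expressed genes), elevated ones such as Ldha and Pgk1 among them. The part of those cells in the result was not tested. Slc2a3, encoding GLUT3, had 8 to 25 reads per library, and no fold-change is read from it.

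The lactate exporter Slc16a3 (MCT4) and the lactate and pyruvate transporter Slc16a1 (MCT1) had opposite signs. Slc16a3 measured 5.08, 3.81 and 3.46 log2 CPM in the Control libraries and 6.05, 4.31 and 4.84 in the Celf1cKO libraries. The replicate 1 library was the highest of each group, the groups overlapped, and each Celf1cKO library was above the Control library of its own number, by 0.97, 0.50 and 1.38. The log2 fold-change of 0.95 had an adjusted p of 0.272, and of 0.0251 with the replicate block. Slc16a1 measured 4.23, 3.53 and 4.24 against 3.80, 2.61 and 3.58 log2 CPM (log2 fold-change -0.67, adjusted p = 0.227, with the block 0.0332).

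The upper part of glycolysis, taken here as the steps from hexokinase to triosephosphate isomerase, spends ATP to make and split fructose 1,6-bisphosphate. Of its 9 genes, 4 were elevated and 0 reduced, beside 6.24% and 3.44% of all expressed genes. The summed level of the 9 genes was 1630, 1322 and 1228 CPM in the Control libraries. In the Celf1cKO libraries it was 2460, 1913 and 2148 CPM. Gpi1, which interconverts glucose 6-phosphate and fructose 6-phosphate, read 7.89, 7.51 and 7.49 log2 CPM in Control and 8.88, 8.20 and 8.57 in Celf1cKO. Aldoa, the aldolase that splits fructose 1,6-bisphosphate, read 9.05, 8.69 and 8.46 in Control and 9.84, 9.43 and 9.70 in Celf1cKO. In both genes every Celf1cKO library was above every Control library, and replicate 1 was the highest library within each group. Both had a log2 fold-change of 0.92, a 1.89-fold higher level, with adjusted p of 0.025 for Gpi1 (SE 0.187) and 0.0193 for Aldoa (SE 0.17). Reads of Aldoa can be split with the near-identical intronless copies Aldoart1 and Aldoart2, which held 10 to 59 reads per library.

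Hexokinase, which traps glucose in the cell as glucose 6-phosphate, was split between isozymes. Hk1, the broadly expressed form, rose from 4.57, 4.36 and 4.60 log2 CPM in Control to 4.87, 5.38 and 5.27 in Celf1cKO (log2 fold-change 0.66 ± 0.152, adjusted p = 0.0356). Hk2, the form known for its response to insulin and hypoxia, measured 5.74, 6.04 and 5.94 against 5.71, 5.35 and 5.29, a difference of -0.45 that did not pass the test (adjusted p = 0.0749). In Hk2 the first Celf1cKO library lay close to the Control range and the other two lay lower. The log2 ratio of Hk2 to Hk1 within a library was 1.17, 1.68 and 1.33 in Control and 0.84, -0.03 and 0.02 in Celf1cKO, with no overlap. Per kilobase of exon, Hk1 made up 21.1% ± 2.9 (SD, n = 3) of the hexokinase level in Control and 36.8% ± 7.6 in Celf1cKO.

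Phosphofructokinase commits the sugar to glycolysis, and of its 3 subunit genes only Pfkp passed the test. The liver-type Pfkl, 88.7% of the family's level per kilobase in Control lenses, had 7.65, 7.50 and 7.16 log2 CPM in Control and 7.93, 7.21 and 7.46 in Celf1cKO, a difference of 0.09 (adjusted p = 0.792). The platelet-type Pfkp was rare and rose from 2.52, 1.24 and 2.57 to 4.37, 3.30 and 3.77 log2 CPM (log2 fold-change 1.70 ± 0.414, 3.26-fold, adjusted p = 0.0411), the largest fold-change among the 52 expressed members. Control replicate 2 was the lowest library of its group by over 1 log2 unit, and no drop of a single library left the adjusted p of Pfkp under 0.05 (0.0525 to 0.132). The muscle-type Pfkm measured 3.31, 3.17 and 3.38 against 2.90, 1.75 and 2.66 log2 CPM (log2 fold-change -0.85, adjusted p = 0.101). Its Celf1cKO libraries had the same order as those of Slc2a1. Pfkp reached 3.5% of the family's level per kilobase in Celf1cKO, from 1.2% in Control, and Pfkm went from 10.1% to 5.4%.

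The remaining upper genes were Tpi1 and Aldoc. Tpi1, which interconverts both triose phosphates, read 8.11, 7.62 and 7.26 log2 CPM in Control and 8.73, 8.27 and 8.40 in Celf1cKO, without overlap (log2 fold-change 0.80, adjusted p = 0.056, with the block 0.0196). Aldoc, the brain-type aldolase, differed by 0.25 (adjusted p = 0.198). Pfkfb3, which makes the phosphofructokinase activator fructose 2,6-bisphosphate, read 4.89, 5.30 and 5.31 log2 CPM in Control and 4.66, 5.26 and 4.99 in Celf1cKO, a difference of -0.19 with overlapping groups (adjusted p = 0.517). The fold-change of Pfkfb2, the other regulator on the list and below the expression cut-off, was 0.02.

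The lower part, from glyceraldehyde 3-phosphate to pyruvate, returns ATP. Its most abundant members were close between groups while Pgk1 and Eno2 rose. Gapdh, glyceraldehyde 3-phosphate dehydrogenase, had the highest level per kilobase of all 54 genes, 394 CPM per kilobase in Control and 459 in Celf1cKO. It read 10.80, 10.67 and 10.52 log2 CPM in Control and 11.12, 10.57 and 10.92 in Celf1cKO, which overlapped (log2 fold-change 0.21 ± 0.158, adjusted p = 0.41). Pkm, pyruvate kinase, differed by -0.16 (adjusted p = 0.499) and Eno1, the common enolase, by 0.24 (adjusted p = 0.243). Pgam1, phosphoglycerate mutase, differed by 0.49 (adjusted p = 0.0659), which passed with the block (0.0318) but stayed below the fold cut-off.

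Pgk1, phosphoglycerate kinase, makes the first ATP of the pathway and had the smallest adjusted p of the members. It read 8.64, 8.20 and 8.05 log2 CPM in the Control libraries and 9.75, 9.49 and 9.64 in the Celf1cKO libraries. The lowest Celf1cKO library was 0.85 above the highest Control library. The log2 fold-change was 1.33 ± 0.159, a 2.51-fold higher level (adjusted p = 0.0094), and when each library was left out in turn it stayed at 1.21 or above, with adjusted p from 0.00598 to 0.0607. Per kilobase of exon its level went from 142 CPM, equal to that of Eno1, to 353 CPM, above that of Pkm.

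Eno2, the neuronal enolase, rose from 2.84, 2.91 and 3.67 to 4.24, 5.15 and 4.64 log2 CPM (log2 fold-change 1.54 ± 0.294, 2.90-fold, adjusted p = 0.0207). The groups did not overlap, but Control replicate 3 was higher than its fellows. Retina markers on the list (6 of 10 in the table) summed to 12, 8.54 and 24.7 CPM in Control and to 6.66, 5.43 and 13.6 CPM in Celf1cKO, so that the third library was highest in both groups and the Celf1cKO libraries were not higher than Control as a group. Eno2 stayed a small part of enolase, 1.4% per kilobase in Control and 3.3% in Celf1cKO.

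Lactate dehydrogenase converts pyruvate to lactate and regenerates the NAD+ that glycolysis needs. Ldha, the gene of the subunit known for favouring lactate, read 7.88, 6.69 and 6.77 log2 CPM in Control and 8.93, 8.20 and 8.56 in Celf1cKO. The highest Control library, replicate 1, lay 0.32 below the lowest Celf1cKO library, and each Celf1cKO library exceeded the Control library of its number by 1.05, 1.51 and 1.78. The log2 fold-change was 1.45 ± 0.33, 2.73-fold (adjusted p = 0.0343, with the block 0.0138). Ldhb, the heart-type subunit, read 1.82, 0.97 and 2.21 against 1.45, -0.68 and 1.91 log2 CPM, which overlapped (log2 fold-change -0.77, adjusted p = 0.475, and 0.01 without Celf1cKO replicate 2). Ldha was 95.0% of the level of this pair per kilobase in Control and 98.8% in Celf1cKO, and the summed CPM of both was 240, 105 and 114 against 491, 295 and 381.

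**Figure D2:**
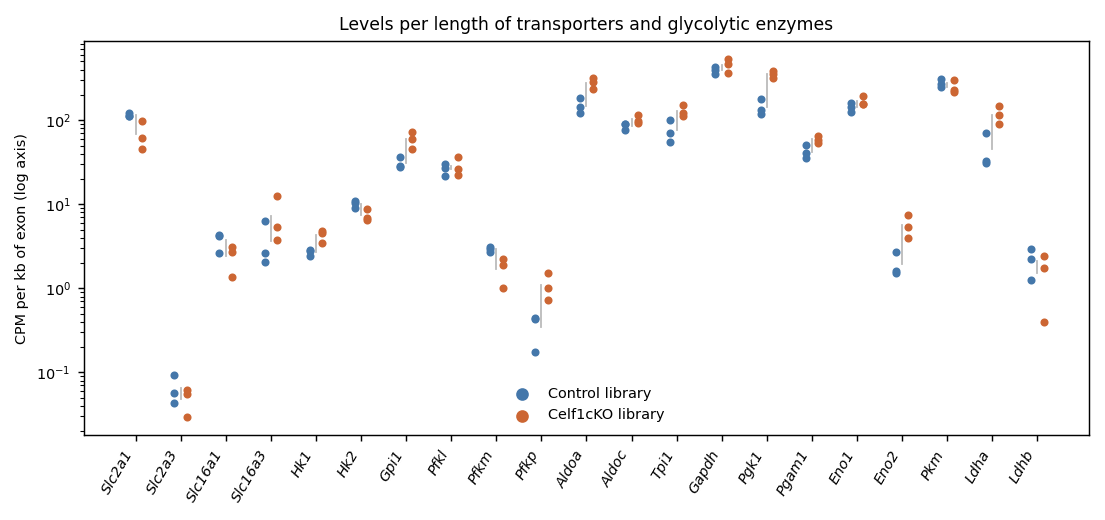
Level of each glucose and lactate transporter and each glycolytic enzyme from hexokinase to lactate dehydrogenase, in CPM per kilobase of exon on a log axis, for each of the 3 Control libraries (blue) and 3 Celf1cKO libraries (orange); the grey line joins the group means. Gapdh was highest at 394 CPM per kilobase in Control, Slc2a1 went from 116 to 68.2, and Ldha from 45.2 to 117, while Slc2a3 lay below 0.1.

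From the hexokinases to the lactate dehydrogenases, 7 of the 17 members were elevated (41.2%) and 0 were reduced. Over all expressed genes these shares were 6.24% and 3.44%, and the median log2 fold-change of the 17 was 0.49. At an unadjusted p under 0.05 limma gave 9 higher and 2 lower genes, 52.9% and 11.8% of them, beside the 19.6% and 14.4% of all expressed genes given above. Limma voom on the reads recovered from the values also called 7 and 0 (all expressed genes 6.1% and 3.79%). The count of 0 reduced holds for the members only. Of 9 other expressed glycolysis enzymes, listed apart from the members, 0 were elevated and 1 was reduced (11.1%). At the 6.24% and 3.44% of all expressed genes, a list of 9 genes would hold few calls. The reduced gene was the phosphoglycerate mutase Pgam2, described below, and the median log2 fold-change of the 9 was -0.02. Of the 17 members, those not called included the most abundant form at several steps (Pfkl, Gapdh, Eno1 and Pkm). The summed CPM of all 54 genes was 8207 ± 796 in Control and 9938 ± 1283 in Celf1cKO (mean ± SD, n = 3). The groups overlapped for this sum, with 9057 in Control replicate 1 and 8798 in Celf1cKO replicate 2, and also for the sum of the 17.

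Several glycolytic genes are textbook targets of hypoxia-inducible factors, which bind the core ACGTG or GCGTG. For this reason the promoters of Pgk1 and Ldha are shown, the genes with the smallest adjusted p in lower glycolysis and lactate production, from 250 bases before to 50 bases after the RefSeq transcript start in GRCm38.p6, 5′ to 3′ on the strand of the gene, with each core on either strand in capitals. The Pgk1 promoter is chrX:106186850-106187149 on the plus strand, at the start of the gene annotated at chrX:106187100-106203699. The Ldha promoter shown is chr7:46845554-46845853 on the plus strand, the first of a pair matched to this gene and inside the gene annotated at chr7:46841475-46855627.
Pgk1: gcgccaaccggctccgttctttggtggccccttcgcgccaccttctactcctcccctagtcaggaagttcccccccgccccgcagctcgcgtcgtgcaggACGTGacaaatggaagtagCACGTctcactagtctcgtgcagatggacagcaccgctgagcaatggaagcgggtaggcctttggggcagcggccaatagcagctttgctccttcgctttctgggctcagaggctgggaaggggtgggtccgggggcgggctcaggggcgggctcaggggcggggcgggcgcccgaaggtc
Ldha: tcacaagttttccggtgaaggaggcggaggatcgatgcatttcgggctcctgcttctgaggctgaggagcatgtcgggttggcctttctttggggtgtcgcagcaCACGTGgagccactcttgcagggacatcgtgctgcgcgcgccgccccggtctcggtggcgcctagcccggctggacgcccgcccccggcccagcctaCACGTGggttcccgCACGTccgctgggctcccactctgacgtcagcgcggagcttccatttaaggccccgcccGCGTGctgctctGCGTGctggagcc
The Pgk1 window held 2 matches to ACGTG and 0 to GCGTG, and the Ldha window 5 and 2, with each CACGTG counted on both strands, where ACGTG and its reverse complement overlap. The other Ldha window, chr7:46846832-46847131, held 0 matches to ACGTG and 2 to GCGTG.

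RefSeq promoters were matched by symbol for 51 of the 54 genes (76 promoters), leaving out Akr1b3, Idh3a and Slc2a3. A core was present in at least one promoter of 40 of these 51 genes (78.4%), beside 69.7% of 8557 expressed genes with a promoter and 46.7% of all 27025 genes in the table of promoters, so that its presence was common in both. ACGTG alone was present for 47.1% of the members, 30.4% of the expressed genes and 21.8% of all genes. Of the 9 elevated members, 7 held a core and 6 held ACGTG. A match of these letters is a description of the window and no evidence of binding.

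The polyol branch holds the only reduced member. Sord, sorbitol dehydrogenase, which oxidises sorbitol to fructose, read 5.01, 5.01 and 5.04 log2 CPM in Control and 4.37, 4.32 and 3.88 in Celf1cKO. The Control libraries were within 0.03 of each other and all Celf1cKO libraries were at least 0.64 lower. The log2 fold-change was -0.83 ± 0.144, a 1.78-fold lower level (adjusted p = 0.0168, with the block 0.0201). Akr1b3, aldose reductase, which makes the sorbitol, read 4.56, 4.63 and 4.47 in Control and 4.79, 4.98 and 4.88 in Celf1cKO. Its groups did not overlap either, but the difference of 0.33 ± 0.101 missed the threshold (adjusted p = 0.0761). The log2 ratio of Sord to Akr1b3 was 0.45, 0.38 and 0.57 in the Control libraries and -0.43, -0.66 and -0.99 in the Celf1cKO libraries.

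None of the 7 pentose phosphate genes was called by limma, beside 9.68% of all expressed genes, or by limma voom. None had an unadjusted p under 0.05 in limma, beside 19.6% of all expressed genes with higher and 14.4% with lower values. Their median log2 fold-change was -0.14. In the oxidative, NADPH-making arm, Pgls, 6-phosphogluconolactonase, had the highest average, with 5.85 ± 0.17 log2 CPM in Control and 5.65 ± 0.02 in Celf1cKO (log2 fold-change -0.20, adjusted p = 0.247). G6pdx, glucose-6-phosphate dehydrogenase at the entry of the pathway, differed by 0.21 (adjusted p = 0.211) and Pgd by 0.16 (adjusted p = 0.264). In the non-oxidative arm, which shuffles sugar phosphates back to glycolysis, Tkt (transketolase) was the most abundant gene of the pathway per kilobase. Tkt read 8.80, 8.81 and 8.69 log2 CPM in Control and 8.80, 8.16 and 8.33 in Celf1cKO, so that Celf1cKO replicate 1 stayed in the Control range and the other two lay below it (log2 fold-change -0.34, adjusted p = 0.204, and 0.0119 without Celf1cKO replicate 1). Rpia differed by -0.22, Rpe by -0.14 and Taldo1 by 0.02.

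At the entry to the mitochondrial route, Pdhb, a subunit of the pyruvate dehydrogenase E1 enzyme, read 5.52, 5.58 and 5.41 log2 CPM in Control and 5.87, 6.15 and 6.00 in Celf1cKO. The groups did not overlap, and the log2 fold-change of 0.50 ± 0.102 passed the adjusted p (0.0248) and lay below the fold cut-off. Pdha1, the other E1 subunit, differed by 0.24 (adjusted p = 0.223) and Dlat, the E2 subunit, by 0.05 (adjusted p = 0.826).

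The pyruvate dehydrogenase kinases switch that complex off by phosphorylation. Pdk1, known as a hypoxia-induced gene and the most abundant of the 3 per kilobase, had 6.03 ± 0.28 log2 CPM in Control and 5.84 ± 0.73 in Celf1cKO (log2 fold-change -0.18, adjusted p = 0.756). Pdk2 read 4.65, 4.31 and 4.47 in Control and 3.94, 2.57 and 3.75 in Celf1cKO, with no overlap and with Celf1cKO replicate 2 far below the other two. Its log2 fold-change was -1.06 ± 0.338 (adjusted p = 0.0839, with the block 0.0335). Pdk3 differed by 0.27 (adjusted p = 0.189). In the share of the kinase level per kilobase, Pdk2 went from 36.0% to 21.4% and Pdk3 from 21.3% to 32.4%.

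Of the 11 TCA cycle enzyme genes on the list, 0 were called in either direction by limma, and 0 by limma voom. Over all expressed genes limma called 9.68%, and at that share a list of 11 genes would hold few calls. Together with the pyruvate dehydrogenase subunits the TCA cycle genes were 14, with a median log2 fold-change of 0.17. Of these, 5 with higher and 1 with a lower level had an unadjusted p under 0.05 in limma. These were 35.7% and 7.14%, beside 19.6% and 14.4% of all expressed genes. Idh3g, a subunit of the NAD-linked isocitrate dehydrogenase and the most abundant by average log2 CPM, had 6.43 ± 0.10 log2 CPM in Control and 6.75 ± 0.05 in Celf1cKO (log2 fold-change 0.31 ± 0.0837, adjusted p = 0.0531). Suclg1, the subunit shared by both succinyl-CoA synthetases, differed by 0.32 (adjusted p = 0.0592). The largest difference of the group was that of Suclg2, the GTP-forming subunit, with 4.83, 4.70 and 4.72 log2 CPM in Control and 4.70, 3.58 and 3.96 in Celf1cKO (log2 fold-change -0.67 ± 0.26, adjusted p = 0.134, and 0.00704 without Celf1cKO replicate 1). Celf1cKO replicate 1 lay at the lower edge of the Control libraries and the other two lay far below. Its ATP-forming counterpart Sucla2 differed by 0.27 (adjusted p = 0.0862). The fold-changes of the other 7 genes, Cs, Idh3a, Idh3b, Ogdh, Dlst, Fh1 and Mdh2, ran from -0.09 to 0.27.

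The enzymes that pass carbon and reducing power between mitochondria and cytosol included the clearest changes outside glycolysis. Me1, cytosolic malic enzyme, which makes NADPH while turning malate into pyruvate, read 5.45, 5.37 and 5.22 log2 CPM in Control and 6.02, 6.55 and 6.30 in Celf1cKO. Mdh1, cytosolic malate dehydrogenase of the malate-aspartate shuttle, read 6.86, 6.86 and 6.81 in Control and 7.31, 7.67 and 7.47 in Celf1cKO. Both genes were tight in Control and higher in every Celf1cKO library, with replicate 2 the highest. Me1 rose by 0.94 ± 0.144, 1.92-fold (adjusted p = 0.0134), and Mdh1 by 0.64 ± 0.104, 1.56-fold (adjusted p = 0.0147).

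The isocitrate dehydrogenases that use NADP sit in the cytosol and in mitochondria, and neither was called. Idh1, the cytosolic form, read 5.97, 5.92 and 5.88 log2 CPM in Control and 6.46, 6.41 and 6.18 in Celf1cKO (log2 fold-change 0.43 ± 0.0967, adjusted p = 0.034, below the fold cut-off). Idh2, the mitochondrial form and the most abundant gene of this role group, read 7.59, 7.76 and 7.55 in Control and 7.52, 7.28 and 7.30 in Celf1cKO. All Celf1cKO libraries were below all Control libraries, the nearest by 0.03, and the difference of -0.27 missed the threshold (adjusted p = 0.125). Pcx, pyruvate carboxylase, which refills oxaloacetate, differed by -0.43 (adjusted p = 0.174).

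**Figure D3:**
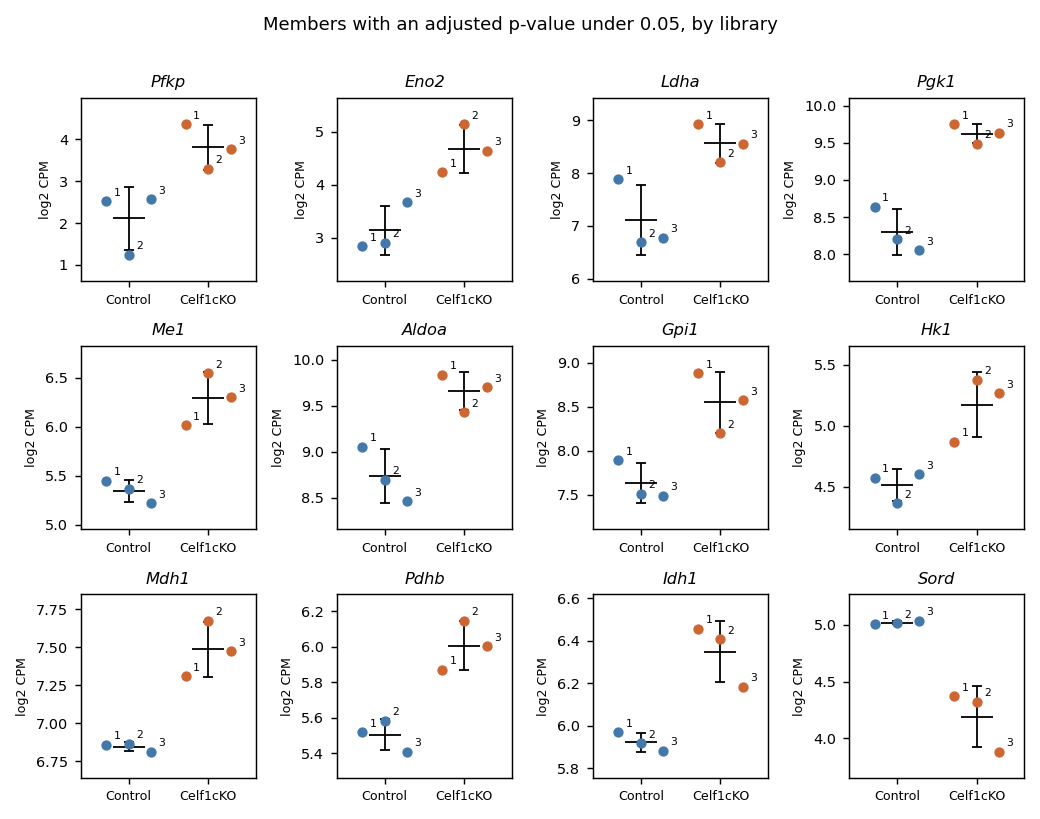
Log2 CPM of the 12 genes with an adjusted p under 0.05, by group, with 1 panel per gene on its own axis; each point is a library labelled with its replicate number, and the bars give the mean and SD of 3 libraries. In 11 panels every Celf1cKO library lies above every Control library, as for Pgk1 (Control 8.05 to 8.64, Celf1cKO 9.49 to 9.75), and in the Sord panel every Celf1cKO library lies below.

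Me1 is a textbook target of the antioxidant response, whose factor NRF2 binds the core TGACNNNGC, and for that reason the promoter at the start of the annotated gene is shown, with that core in capitals. The window is chr9:86695865-86696164 of GRCm38.p6 on the minus strand, and the gene is annotated at chr9:86581371-86695953.
Me1: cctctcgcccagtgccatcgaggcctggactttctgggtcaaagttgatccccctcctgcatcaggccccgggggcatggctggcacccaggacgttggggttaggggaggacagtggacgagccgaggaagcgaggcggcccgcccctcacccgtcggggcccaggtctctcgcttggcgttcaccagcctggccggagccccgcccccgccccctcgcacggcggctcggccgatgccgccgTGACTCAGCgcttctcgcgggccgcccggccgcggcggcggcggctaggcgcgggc
It held 1 match, and the other window matched to Me1, chr9:86687228-86687527, held 0. The core was found on either strand in a promoter of 11 of the 51 matched members (21.6%), of which 4 were elevated, beside 17.0% of the expressed genes and 14.0% of all genes. Sord held none of the 3 cores.

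Log2 ratios of 2 members within the same library, which do not depend on the scaling between libraries, were taken for 15 pairs of isozymes or successive enzymes. They are ratios of CPM and not of levels per kilobase. The groups did not overlap for 11 ratios, 3 higher and 8 lower in Celf1cKO. How often other pairs of expressed genes separate in this way was not computed. Ratios that hold a called gene, such as Ldhb to Ldha or Sord to Akr1b3, partly repeat that call. With 3 libraries against 3 the two-sided exact permutation test cannot go below 0.1, which all 11 reached, so that none could pass 0.05, and their Benjamini-Hochberg value over the 15 pairs was 0.14. The largest differences were in Ldhb to Ldha, from -5.45 ± 0.79 to -7.67 ± 1.13 (mean ± SD, n = 3), in Slc16a3 to Slc16a1, from 0.11 ± 0.83 to 1.73 ± 0.50, and in Pfkp to Pfkl, from -5.33 ± 0.86 to -3.72 ± 0.18. Mitochondrial against cytosolic forms had smaller shifts with little spread. Idh2 to Idh1 went from 1.62, 1.84 and 1.67 to 1.06, 0.87 and 1.12, and Mdh2 to Mdh1 from -0.44 ± 0.08 to -0.81 ± 0.11. Aldoc to Aldoa barely separated, since both Control replicate 1 and Celf1cKO replicate 2 printed as -0.87. Eno2 to Eno1 overlapped (exact permutation p = 0.2), as did Pdk3 to Pdk1, Slc2a3 to Slc2a1 and Pfkfb3 to Pfkfb2.

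**Figure D4:**
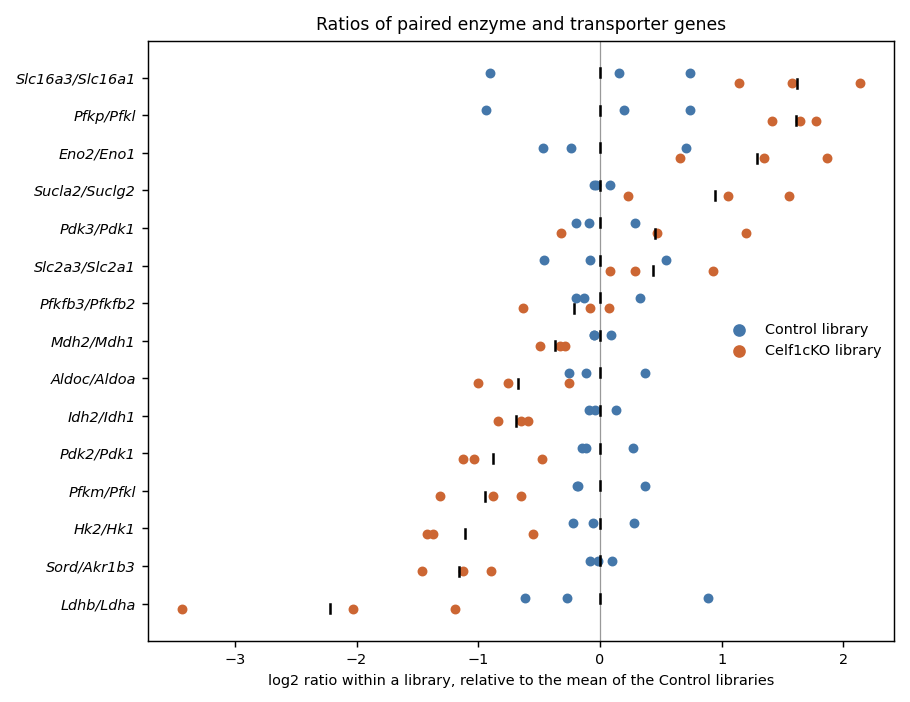
Log2 ratio of 2 genes within each library minus the mean of the 3 Control libraries (horizontal axis), for 15 pairs ordered by the group difference; blue points are Control, orange points Celf1cKO, and black ticks the group means. Points of the groups are apart for 11 pairs, and the widest shifts are 1.62 for Slc16a3 to Slc16a1 and -2.22 for Ldhb to Ldha.

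Other genes of these pathways were taken from a list of 91 symbols sorted by function, of which 79 were in the table and 68 expressed. Of these 9 were elevated and 1 reduced, 13.2% and 1.47%, against the 6.24% and 3.44% given above. Slc25a1, the mitochondrial citrate carrier, rose from 3.71, 3.42 and 3.66 log2 CPM to 5.22, 5.80 and 5.71 (log2 fold-change 1.98 ± 0.173, adjusted p = 0.00855), and Acly, which splits the exported citrate into acetyl-CoA and oxaloacetate, by 0.64 (adjusted p = 0.0131). Txnip, an arrestin-like protein that restrains glucose uptake, rose from 4.17, 2.60 and 3.79 to 5.92, 5.42 and 6.28 (log2 fold-change 2.35 ± 0.403, adjusted p = 0.0162). With Slc2a10, a sugar transporter (1.23, adjusted p = 0.0194), these were the changes in transport and citrate export.

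In sugar storage and interconversion, Pgm1, phosphoglucomutase, rose by 0.78 (adjusted p = 0.0107) and Gyg, glycogenin, the primer of glycogen synthesis, by 0.72 (adjusted p = 0.0124). Rbks, ribokinase, rose by 1.09 (adjusted p = 0.0486, and 0.0533 with limma voom) and Pmm1, a phosphomannomutase, by 0.74 (adjusted p = 0.0444, and 0.0562 with the replicate block). Sdhc, a membrane subunit of succinate dehydrogenase, rose by 0.59 (adjusted p = 0.0285). The one reduced gene was Pgam2, the muscle-type phosphoglycerate mutase, from 8.63, 8.59 and 8.31 to 7.80, 7.29 and 7.09 log2 CPM (log2 fold-change -1.12 ± 0.184, adjusted p = 0.0153). Per kilobase of exon Pgam2 stood at 436 CPM in Control and 205 in Celf1cKO, above Pgam1 at 42.4 and 59. The log2 ratio of Pgam2 to Pgam1 in CPM, computed after the values were seen, was 1.97, 2.27 and 2.16 in Control and 0.80, 0.56 and 0.23 in Celf1cKO. Skeletal muscle markers on the list were nearly absent, 1 of 8 in the table with a sum of 0.962 to 1.76 CPM over the libraries.

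A list of hypoxia genes outside these pathways was read beside the glycolytic genes. Most are known to be induced by hypoxia, but the list also held Hif1a, Arnt and Epas1, which encode the hypoxia-inducible factors themselves. Of its 17 expressed genes, 1 was elevated and 0 were reduced in limma, and 4 with higher and 1 with lower levels had an unadjusted p under 0.05. The elevated shares, 5.88% and 23.5%, were near the 6.24% and 19.6% of all expressed genes, and the reduced ones, 0% and 5.88%, were below 3.44% and 14.4%. The elevated gene was Ak4, a mitochondrial adenylate kinase (log2 fold-change 1.57, adjusted p = 0.0187). The median log2 fold-change of the list was 0.01, and limma voom gave 1 and 0 calls. Positive values were found for 9 genes and negative ones for 8, from -1.58 to 1.57, and none of the negative ones was called. Vegfa, the angiogenic growth factor, had 6.74 ± 0.06 log2 CPM in Control and 6.75 ± 0.22 in Celf1cKO, a difference of 0.01 (adjusted p = 0.976). Higd1a, a mitochondrial protein, rose by 0.53 (adjusted p = 0.0114), below the fold cut-off. Bnip3, a mitophagy receptor, differed by 0.70 (adjusted p = 0.117, with the block 0.0308), and Ddit4, an inhibitor of mTORC1, by 1.29 (adjusted p = 0.0864, with the block 0.0214).

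CELF1 is known to bind GU-rich elements in 3′ UTRs, and one 11-base form of that element, in capitals in the sites below, was searched. It was present on the sense strand in the longest annotated 3′ UTR of 2 of the 54 genes (3.70%), beside 4.60% of 10401 expressed genes, with median 3′ UTR lengths of 904.5 and 1272 bases. Both sites are given with the element in capitals, on the strand of the gene in GRCm38, Gpi1 at chr7:34201732-34201761 on the minus strand and Slc16a1 at chr3:104655952-104655981 on the plus strand.
Gpi1: ttgcttgctTGTTTGTTTGTttaccttcgc
Slc16a1: ttttcttttTGTTTGTTTGTtttgttttaa
Gpi1 was elevated and Slc16a1 was not called except with the replicate block, where it was reduced. The other elevated members held no such element in that UTR, which says only that these letters were not found there.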

How the data were processed

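Total RNA of P0 lenses was sequenced as strand-specific paired-end libraries. Per the submitters' processing notes, reads were aligned with STAR 2.7.8a to GRCm38.p6 and counted with featureCounts 2.0.0; the strand setting of the counting is not given in the sources used here. The authors filtered low genes and deposited log2 CPM per library, scaled by normalization factors between libraries. The deposited table also holds the authors' own comparison (log2 fold-change, a score named F, p-values and adjusted p-values), which was not used apart from the average log2 CPM for the expression cut-off. No column of per-sample values was left unmapped.

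From the deposited log2 values, read counts were recovered within 0.01 reads of whole numbers and used for depth and for limma voom. A value of 3 reads corresponds to 0.0609 to 0.0807 CPM, and the expressed members held 28 to 95764 reads per library. Groups were compared with limma 3.58.1 in R 4.3.3 (linear model, moderated variance with an intensity trend) over all 13931 genes with Benjamini-Hochberg adjustment. Calls needed an adjusted p under 0.05, a log2 fold-change beyond 0.58 and an average log2 CPM above 1. A block for the replicate number was an alternative, since same-numbered libraries deviated together from their group means (correlations 0.26, 0.39 and 0.38 for numbers 1, 2 and 3). The labels give a replicate number and name no shared litter or batch. The pairing was therefore inferred from these same values, and results with the block hold only if the numbers do pair the libraries. Values per kilobase used the union of annotated exons (GENCODE). Genes with near-identical intronless copies (Gapdh, Pgk1, Ldha, Aldoa and Eno1) may have lost or shared reads in counting. The design foresaw count models on raw reads, which were not run because the deposited unit is log2. Scripts were tested on simulated data.

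The members, the gene lists and the tests were chosen with earlier results of these data known, and the list of other genes supports nothing by itself. Members with an adjusted p under 0.05 and the most abundant member of each role are given with their values, others by range and by the largest differences of each role, and of other pathway genes those called. The alternatives were no variance trend, log2(CPM + 1), expressed genes only, median centring, scaling without crystallins, each library left out and, added after seeing the data, total-count scaling and limma voom. Replicates were separate pools of lenses.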

Additional observations from a re-analysis of the deposited data

How the results depend on the processing

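Of the members, 9 elevated and 1 reduced became 2 and 0 without the variance trend, which kept Pgk1 and Me1. These 2 were 3.85% of the expressed members, close to the 2.88% of all expressed genes elevated under that setting. Reduced calls were 0% of the members beside 1.08%. With each library left out, 0 to 8 members were elevated and 0 to 6 reduced. Elevated members with an adjusted p under 0.05 were 11, 2 without the trend, 26 under total-count scaling and 0 to 15 with a library left out, and reduced ones 1, 0 without the trend and 0 to 8. The other listed genes, the hypoxia list included, gave 10 elevated and 1 reduced, 5 and 0 without the trend, 27 elevated under total-count scaling, and 0 to 16 and 0 to 4 with a library left out. The libraries that decide these counts are Control replicate 2 and Celf1cKO replicate 3, without which the count of calls was 0. The replicate block gave 4 reduced members, both as calls and by adjusted p alone, and changed no call beyond those named beside the results and Gpd2, which it added to the elevated genes (log2 fold-change 0.82, adjusted p = 0.0416).

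Total-count scaling, which leaves out the normalization factors, moved the median of all expressed genes by 0.23 and their share elevated by adjusted p alone from 9.82% to 26.4% (members 11 to 26 of 52), and the log2 difference of summed CPM to 0.87 (upper glycolysis), 0.47 (lower glycolysis), 0.00395 (polyol pathway, reversed from -0.22), 0.25 (oxidative pentose phosphate), 0.54 (pyruvate dehydrogenase complex), 0.37 (TCA cycle), 0.50 (NADP and shuttle enzymes), 0.62 (hexokinase to lactate dehydrogenase) and 0.50 (all members). It turned the sign of the uncalled Pfkfb3 (0.0341), Pkm (0.0627), Pgls (0.0263), Rpia (0.00189), Rpe (0.0818), Pdk1 (0.043) and Dlst (0.14). Median centring turned Pfkfb2 (-0.00187) and Taldo1 (-0.00639), and scaling without crystallins Taldo1 (-0.00258) while losing the call of Pfkp. With a library left out, the sign was not kept for Pfkl (-0.11 to 0.25), Pfkfb2 (-0.0753 to 0.19), Ldhb (-1.28 to 0.015), Taldo1 (-0.0505 to 0.0664), Dlat (-0.0234 to 0.14), Pdk1 (-0.56 to 0.16), Ogdh (-0.0334 to 0.17) and Fh1 (-0.00634 to 0.0616). The causes were not tested. No ratio reversed under any alternative run. With log2(CPM + 1), expressed genes only, median centring or limma voom, 9 or 10 members were elevated and 1 was reduced. The count models foreseen in the design were not run. Each expressed member had at least 28 reads in every library, and 3 libraries per group limit every test.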
